A study of Mus musculus with 84 samples.

Results

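Among airway-projecting sensory neurons of the mouse vagal ganglia, those that carried the transcript of the capsaicin receptor Trpv1 were set against those that did not, gene by gene. The members were chosen by their own counts, scaled to CPM (a gene's counts for every 1000000 counts of the neuron): a neuron had to hold 5000000 or more counts, 5000 or more genes at 10 CPM or more, and less than 10 CPM of Prdm12, the transcription factor that marks neurons of the jugular ganglion. Of 84 neurons in the series 12 were under 5000000 counts, 34 had fewer genes and 6 had Prdm12, which left 32. In 12 of these Trpv1 reached 10 CPM or more (the Trpv1 neurons) and in 20 it did not (the Trpv1-negative neurons).

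All neurons came from mice of the strain C57BL/6 and had been labelled from the airways with the dye DiI at 2%, which travels back along axons to the cell body. Each labelled neuron was picked by hand as 1 sample and its mRNA was amplified before sequencing. The labels give no treatment, no time and no age, they put all neurons in 1 group, and they do not name the animal behind a neuron. The classes were thus cut from a measured value. No test was made between them, and differences are described by size and by the spread over neurons.

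In the mouse the nodose and jugular ganglia of the vagus nerve are fused. Nodose neurons arise from placodes and carry P2X ATP-gated channels, while jugular neurons arise from the neural crest. Trpv1 is a cation channel opened by capsaicin, heat and acid, and in the airways it is best known from C-fibres, the thin unmyelinated afferents whose stimulation gives rise to cough and other defensive reflexes. Vagal afferents without it include the thicker myelinated fibres that respond to lung stretch and touch.

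Trpv1 itself (chromosome 11, 73234292 to 73261242, GRCm38) had 15.02 CPM in the lowest, 81.8 CPM in the median and 923 CPM in the highest of the 12 Trpv1 neurons. The Trpv1-negative neurons ran at a median of 0.0812 CPM (0 to 1.58). These values chose the classes. The neurons just inside the limit had 15.02 and 28.2 CPM and those just outside had 1.58 and 1.07 CPM, so no neuron lay near 10 CPM. For the number of genes the nearest neurons had 5231 and 5826 inside the limit and 4870 and 4500 outside it. Among neurons with enough counts and genes, Prdm12 was at most 0.259 CPM inside its limit and at least 22.04 CPM outside. The genes beside Trpv1 did not share its pattern: Shpk was found in 1 and 2 neurons, and Trpv3 in 1 and 0.

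**Figure D1:**
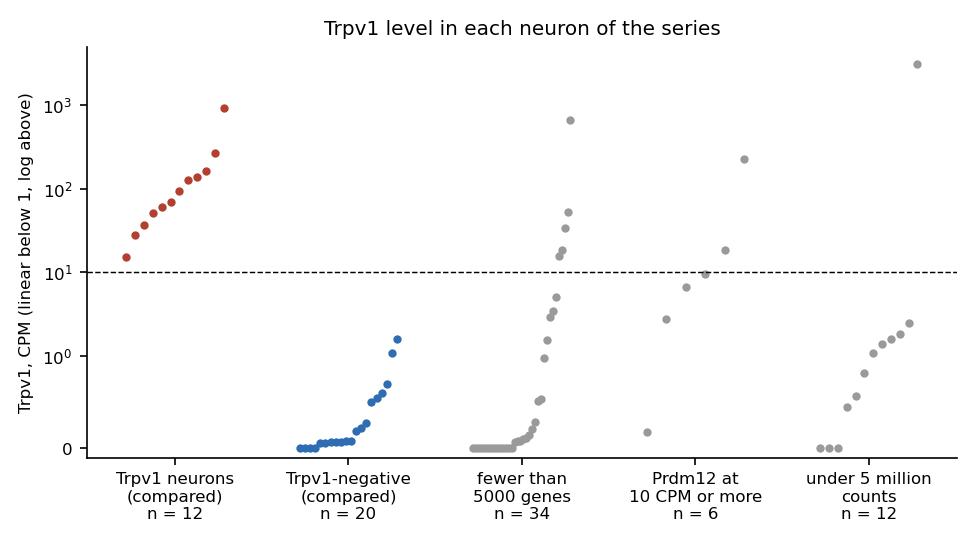
Trpv1 in CPM (vertical axis, linear below 1 and logarithmic above) for each of the 84 neurons, 1 point each, by step of the selection. The dashed line marks 10 CPM. The 12 Trpv1 neurons start at 15.02 CPM and the 20 Trpv1-negative neurons end at 1.58 CPM. Neurons in grey were not compared, and 8 of them lie above the line.

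The 2 classes were alike in median depth. Total counts ran from 7667941 to 20668832 in the Trpv1 neurons and from 10274511 to 20063519 in the Trpv1-negative neurons, with medians of 13954424 and 14718122, where the whole series ran from 576966 to 20668832. Genes at 10 CPM numbered 7763.5 and 7995.5 in the median. Their lower quartiles were further apart, at 7333 in the Trpv1 neurons and 6316 in the Trpv1-negative neurons. Both classes carried nodose markers: Hoxb5, a homeobox gene, was found in 12 of 12 and 19 of 20, Ntrk2, a neurotrophin receptor gene, in all 32, and the ATP-gated channel P2rx2 in 11 of 12 and 15 of 20. P2rx3, a second ATP-gated channel of the nodose list, was found in 8 of 12 and 10 of 20, and Phox2a in 1 neuron of each class. Of the jugular markers Prrxl1 was found at 10 CPM in 5 of 12 and 10 of 20, Calca in 5 of 12 and 3 of 20. Mrgprd was found in none, so the selection did not remove every jugular marker. Calca was the 1 jugular marker past a limit, higher by level in the Trpv1 neurons (difference 2.15 in mean log2(CPM + 10)). A gene is called found in a neuron where it reached 10 CPM, and in the shallowest neuron compared this took 76.7 counts. Where a pair of counts is given, the Trpv1 neurons (of 12) come before the Trpv1-negative neurons (of 20).

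Over all genes the classes were nearly level. Of 14431 genes found in at least 1 of the 32 neurons, 166 (1.15%) had a share of neurons 40 percentage points or more higher in the Trpv1 neurons and 164 (1.14%) had one 40 points or more lower, 2.29% in all. By level, 30 genes (0.208%) were higher and 22 (0.152%) lower by 2 or more in the mean of log2(CPM + 10), 0.36% in all, a scale that understates the change of low genes. Both rules were met by 18 genes above and 15 below. The median gene differed by 0 points and by -0.0017 on the log2 scale. Of the 166 genes 12 were found in all Trpv1 neurons and 24 in no Trpv1-negative neuron, counts that hold Trpv1 itself by the rule. A share of 0 of 20 allows up to about 15%. Of the 164 genes 47 were found in at most 1 Trpv1 neuron and 11 in all Trpv1-negative neurons. The 40 point rule favours such shares, and the same counts over all genes are not given here, so nothing is read from them. Trpv1 alone (0.00693% of the genes), whose values chose the classes, had ranges that did not overlap between them.

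**Figure D2:**
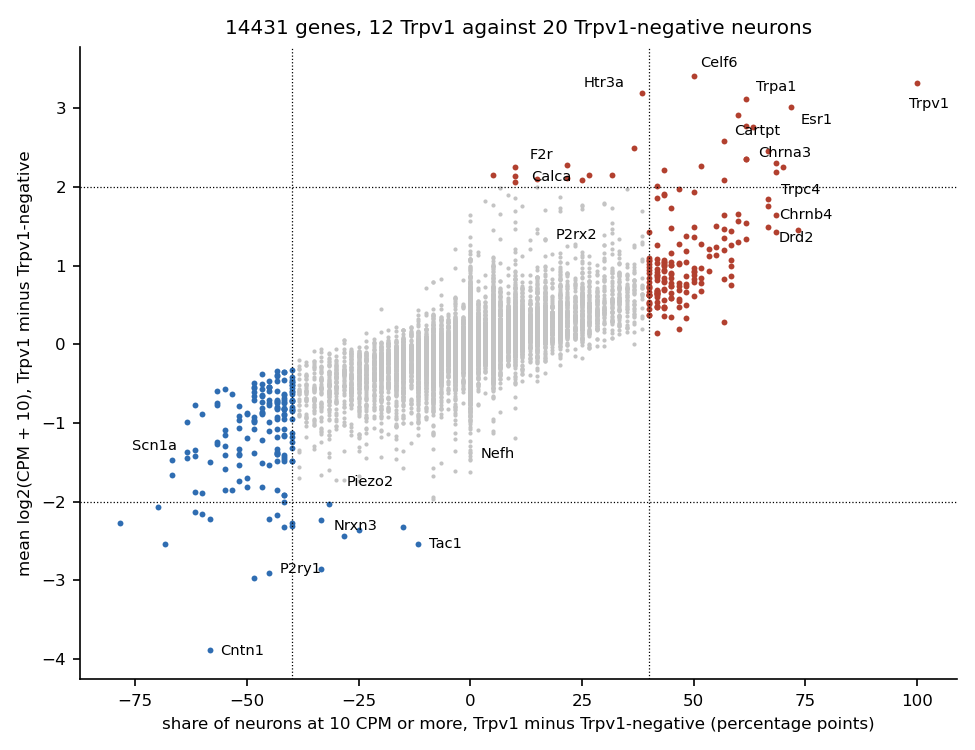
Each point is 1 of 14431 genes. The horizontal axis is the difference in the share of neurons at 10 CPM or more (percentage points) and the vertical axis the difference in mean log2(CPM + 10), each as Trpv1 minus Trpv1-negative neurons. Dotted lines mark 40 points and 2 on the log2 scale, red and blue points lie past either. Celf6 is the highest gene by level (3.41), Cntn1 the lowest (-3.89), and Trpv1 stands at 100 points.

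Single receptors for irritants and transmitters differed, among lists that held few differences. Of 10 TRP channels compared from the list, 2 were higher, Trpv1, which the rule set, and Trpa1, and none was lower. Trpc4, which the list does not hold, was higher too and is described with the genes most like Trpv1. Trpa1, the channel for electrophilic irritants such as mustard oil, was found in 8 of 12 Trpv1 neurons (66.7%, 95% exact interval 34.9 to 90.1%) and 1 of 20 Trpv1-negative neurons (5%, 0.127 to 24.9%). Its median was 58.7 CPM (0 to 2415) in the former and 0.145 CPM (0 to 87.1) in the latter. Thus 5 Trpv1 neurons lay above every Trpv1-negative neuron, 4 were under 1 CPM, and the mean log2 level differed by 3.12 (SD over neurons 3.00 and 0.73). Trpv2, a relative of Trpv1, was found in 12 of 12 and 18 of 20 at medians of 54.2 and 36.3 CPM, and Trpm8, the cold channel, in none. All intervals here cover counting error only.

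The subunits of the serotonin-gated channel were split among the Trpv1 neurons. Htr3a, which can form the channel alone, was found in 7 of 12 Trpv1 and 4 of 20 Trpv1-negative neurons, at a median of 459 CPM (0.140 to 4054) against a median of 2.71 CPM (0.0556 to 1629). The mean log2 level differed by 3.19, while the difference in share was 38.3 points, below the limit. Htr3b, which joins Htr3a in the mixed channel, was found in 7 and 3 neurons at medians of 65.3 and 0.0761 CPM (difference 2.21). The same 7 Trpv1 neurons carried both, and 2 Trpv1-negative neurons did so. Of 8 serotonin receptor genes compared, 1 was higher by share and 2 by level, and none was lower. The receptor Htr1d was found in 1 and 9 neurons.

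Nicotinic acetylcholine receptor genes of the ganglionic type also split the Trpv1 neurons. Chrna3 was found in 8 of 12 Trpv1 neurons, at a median of 56.3 CPM (0 to 472), and in 1 of 20 Trpv1-negative neurons, at a median of 0.0274 CPM (0 to 31.6). All 8 lay above the highest Trpv1-negative neuron, and the mean log2 level differed by 2.36. Chrnb4, its usual partner, was found in 8 of 12 (66.7%, 34.9 to 90.1%) and 0 of 20, at most 176 CPM against at most 0.391 CPM, and 7 neurons held both. Chrna5, the third gene of the cluster, was found in 2 and 0 neurons. Of 7 nicotinic genes compared 2 were higher and none lower, and Chrnb2 was found in 10 of 12 and 16 of 20.

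Among inhibitory receptors 1 of 11 was higher, the dopamine receptor Drd2, found in 8 of 12 and 0 of 20 neurons at a median of 17.3 CPM and a highest value of 160 CPM against 0.550 CPM. The opioid receptor Oprm1 and the somatostatin receptor Sstr2 were each found in 4 and 0 neurons, a difference below the limit. Of 23 receptors for inflammatory mediators none passed by share and 1 by level: F2r, the thrombin receptor, was found in 11 and 14 neurons, with 9.77 to 752 CPM and a median of 168 CPM against 0 to 430 CPM and a median of 26.9 CPM (difference 2.27). Cysltr2, a receptor for cysteinyl leukotrienes, was found in 7 and 4 neurons and Ptgir, the prostacyclin receptor, in 11 and 12, neither past a limit. Of 19 cytokine receptors Crlf2, part of the receptor for thymic stromal lymphopoietin, was higher (8 and 5 neurons), at medians of 11.4 and 7.68 CPM that straddle the 10 CPM threshold. Among 6 acid sensors the acid-inhibited potassium channel Kcnk3 was higher, in 6 of 12 and 0 of 20, with a highest value of 202 CPM against 6.15 CPM.

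Neuropeptide genes differed both ways. Of 13 compared, Cartpt was higher by share and by level, Calca by level alone, and Tac1 was lower by level. Cartpt, which encodes a peptide regulated by cocaine and amphetamine, was found in 11 of 12 and 7 of 20, at a median of 161 CPM (2.52 to 2154) against a median of 5.10 CPM (0 to 263) (difference 2.58). Calca, which encodes calcitonin gene-related peptide, was found in 5 and 3 neurons, and these 5 Trpv1 neurons held 131 to 9512 CPM, above the highest Trpv1-negative neuron at 129 CPM. Its level difference of 2.15 was 1.502 without the neuron AM021, which had 9512 CPM. Tac1, the gene of substance P, was found in 7 of 12 and 14 of 20, with medians of 14.99 and 395 CPM and highest values of 3407 and 7773 CPM (difference -2.54). Calcb was found in 4 and 0 neurons and Vip in 3 and 0, both below the limit.

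**Figure D3:**
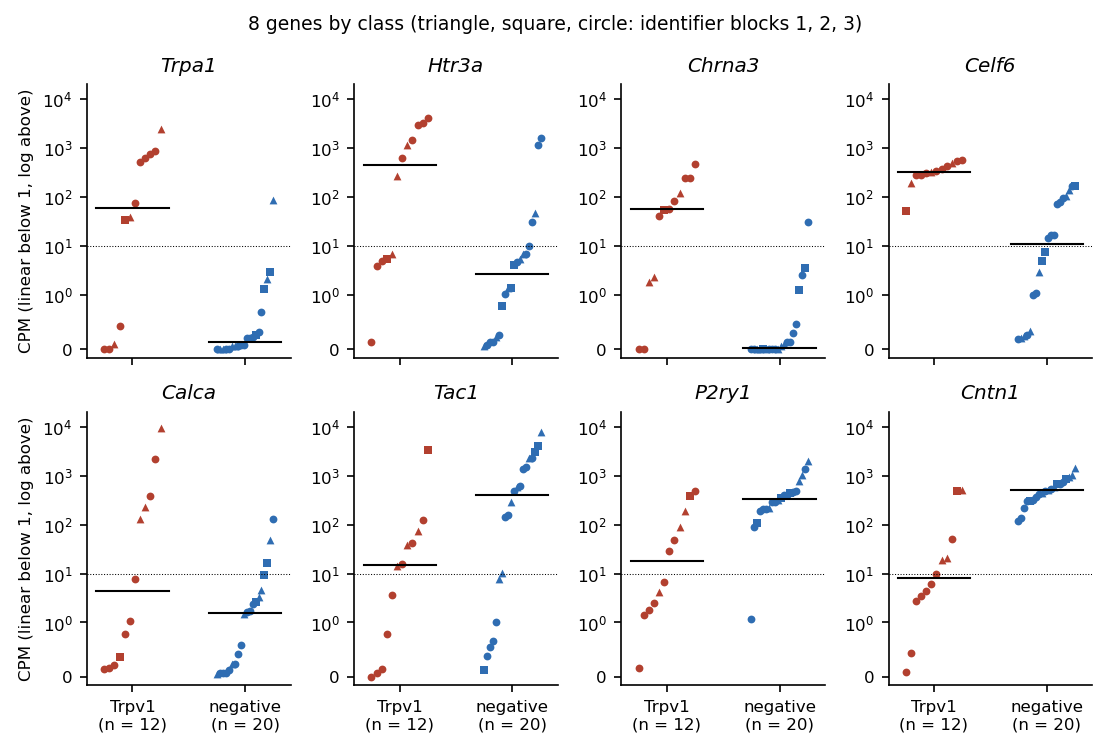
CPM per neuron (vertical axis, linear below 1 and logarithmic above) for 8 genes, in the 12 Trpv1 neurons (red) and the 20 Trpv1-negative neurons (blue). Bars are medians, dotted lines mark 10 CPM, and marker shapes give the block of neuron numbers. Trpa1 and Chrna3 are under 10 CPM in all but 1 Trpv1-negative neuron and split the Trpv1 neurons, Celf6 is above 50 CPM in every Trpv1 neuron, and P2ry1 and Cntn1 are high in nearly all Trpv1-negative neurons.

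Outside the lists, the genes with the largest level differences past 40 points were found in 8 to 12 of the 12 Trpv1 neurons. Celf6, an RNA-binding regulator of splicing, was found in 12 of 12, at a median of 332 CPM (52.1 to 570.5), and in 10 of 20, at a median of 11.1 CPM (0.185 to 170). Its difference of 3.41 was the largest upward one by level, and 11 Trpv1 neurons lay above the highest Trpv1-negative neuron. Sertm1, which encodes a small membrane protein, was found in 12 of 12 and 8 of 20 at medians of 215 and 2.04 CPM. Esr1, the oestrogen receptor alpha, was found in 11 of 12 and 4 of 20, at a median of 94.8 CPM (0 to 675) against a median of 1.60 CPM (0 to 26.6) (difference 3.02). Dkk3, a secreted protein of the Dickkopf family, was found in 11 and 6 neurons at medians of 170 and 0.889 CPM.

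The other genes of this group of 12 differed by 2.09 to 2.76 on the log2 scale. Hs6st2 and Hs3st4, enzymes that add sulphate groups to heparan sulphate, were found in 10 and 4 and in 9 and 1 neurons. Plcxd3, a phospholipase-domain gene, was found in 10 and 3 neurons, and Dgkg, a diacylglycerol kinase, likewise in 10 and 3. Bex1, Pgap1 (an enzyme that remodels GPI anchors), Maob (monoamine oxidase B) and Efcab6 were found in 11 and 6, 11 and 8, 8 and 2, and 8 and 0 neurons. Among genes found in 90% or more of both classes, Vat1l (medians of 615 and 81.4 CPM), the secretory granule protein Scg2 (688 and 149 CPM), Gnas, which encodes the stimulatory G protein alpha subunit (163 and 32.7 CPM), and Fam89a (277.8 and 39.03 CPM) were higher by 2.07 to 2.25. Ranges overlapped for each of them.

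The genes most like Trpv1 over the 32 neurons, by Spearman rank correlation of log2(CPM + 10), were Celf6 and Col6a5 (rho 0.76 each), Greb1l (0.74), Ccdc9b (0.73), Trpc4 and Plcxd3 (0.72 each) and H2-K1 (0.69), followed by Gnas, Rcan3 and Rspo4. The correlation is a description: the 2 classes were cut on Trpv1, and all genes of a neuron share 1 library. Trpc4, a calcium-permeable channel of the TRPC family, was found in 8 of 12 and 0 of 20, up to 178 CPM against 1.03 CPM. Among the 12 Trpv1 neurons alone, rho with Trpv1 was 0.36 for Trpa1, 0.60 for Kcnk3, 0.64 for Npy2r and -0.22 for Calca. H2-K1 belongs to a family of near-identical class I genes, so its level is uncertain.

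Channels that set excitability differed gene by gene. Of 13 sodium channel genes 2 were higher and 1 lower, and of 15 calcium channel genes 3 were higher and none lower. Scn1a, a sodium channel of fast-firing neurons, was found in 1 of 12 and 14 of 20, at most 20.7 CPM against a median of 16.2 CPM and a highest value of 87.0 CPM. The axonal potassium channel Kcna1 and Kcnmb4, a subunit of calcium-activated potassium channels, were found in 2 and 12 and in 3 and 13 neurons.

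In the other direction Scn3a was found in 7 and 3 neurons, the beta subunit Scn2b in 11 and 8, and the potassium channels Kcnc2 and Kcns3 each in 10 and 8. The calcium channels Cacna1e (R-type, 6 and 0 neurons), Cacna1h (T-type, 5 and 0) and Cacna1c (L-type, 11 and 10) were higher by share, with medians of 9.46, 6.55 and 25.1 CPM in the Trpv1 neurons. For Cacna1h the difference of 41.7 points was 0 when 50 CPM was required. The channels of nociceptors did not part the classes: Scn9a was found in all 32 neurons, Scn10a in 11 and 16 and Scn11a in 12 and 16. None of the 13 C-fibre genes passed either limit.

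Cntn1 led the genes on the Trpv1-negative side, where few members of the lists for axons passed. Cntn1, an adhesion protein of axons and of the node of Ranvier, was found in 5 of 12 Trpv1 neurons, at a median of 7.998 CPM (0.0848 to 499), and in 20 of 20 Trpv1-negative neurons (83.2 to 100%), at a median of 496 CPM (118 to 1402). Its difference of -3.89 was the largest downward one, and 10 Trpv1-negative neurons lay above every Trpv1 neuron. Cntnap1, the paranodal partner of Cntn1, was found in 4 and 17 neurons, and with Kcna1 made 2 of 13 A-fibre genes lower and none higher. The neurofilament genes Nefh and Nefm, found in all 32 neurons, had medians of 450.5 against 1194 CPM and 336 against 840 CPM (differences -1.35 and -1.30, below the limit). Nrxn3, a presynaptic adhesion gene, was found in 8 of 12 and 20 of 20 at medians of 19.3 and 177 CPM (difference -2.23). The glial markers S100b (308 and 645 CPM) and Pmp22 (430 and 600 CPM) differed in the same direction beside these, by -1.62 and -1.46 on the log2 scale, and their part in the axon genes was not tested.

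P2ry1, a receptor for ADP, was the 1 purine receptor of 12 past a limit. It was found in 6 of 12 and 19 of 20, at a median of 18.1 CPM (0.156 to 488) against a median of 334 CPM (1.17 to 1998) (difference -2.91). The P2X subunits did not pass: P2rx2 had medians of 99.99 and 32.6 CPM and a difference of 1.33, and P2rx3, which overlaps Ssrp1 on the other strand, was found in 8 and 10 neurons. The stretch channel Piezo2 was found in 3 of 12 and 11 of 20, a difference of -30 points, and none of 11 mechanically gated channels passed. Outside the lists, Myh10, a non-muscle myosin, gave the widest gap in share of the named genes after Trpv1, in 2 of 12 (2.09 to 48.4%) and 19 of 20 (75.1 to 99.9%). Pappa2 (2 and 17 neurons), Tmem163 (3 and 19), Fxyd7 (3 and 17), Slc24a2 (5 and 20), Serpina3g (5 and 17), Olfm3 (6 and 18), Hopx (7 and 20), Lypd6 (1 and 14), Thsd7a (7 and 20) and Rspo2 (7 and 20) completed the group, with differences of -1.91 to -2.54. Serpina3g is one of a family of close copies and its level is uncertain.

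Other lists held few or no differences. Of 34 axon guidance and adhesion genes, whose median difference was -0.04 on the log2 scale, the neuropilin Nrp1 (9 and 5 neurons) and the netrin receptor Unc5d (7 and 1) were higher and the plexin Plxna2 (6 and 18) lower. Among 12 immediate early genes Ier2 was higher (10 and 6), and among 12 calcium-binding proteins Hpcal1 was higher by level alone (2.15). No member passed in the lists of Trpv1 regulators (14 genes), transcription factors (29), injury genes (12), synaptotagmins (12), hormone receptors (8) or glutamate release (4). Pirt, a membrane protein that binds Trpv1, had medians of 724 and 665 CPM. In all, 19 of 369 list genes compared, Trpv1 among them, were 40 points higher and 7 were lower, beside 1.15% and 1.14% of all genes compared. The lists were chosen with these differences known, so nothing is read from these counts.

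Several of the genes on the Trpv1 side lie near each other on chromosome 9 (GRCm38, GENCODE M21). Htr3a, Htr3b and Drd2 lie within 508965 bases, with Usp28 (1 and 2 neurons), Zw10 (3 and 9) and Tmprss5 (0 and 1) between them, so the genes between did not share the difference. Chrna5, Chrna3 and Chrnb4 lie within 67900 bases. Chromosome 9 held 13 of the 166 higher genes (7.83%) and 5.83% of all genes compared. The 150 bases before the start of Trpv1 and of 4 of these genes are shown because the 4 genes were found together in the neurons described next. They are RefSeq sequences on GRCm38.p6, 5′ to 3′ on the gene's strand, and RefSeq starts can differ from the GENCODE bounds. Capitals mark the motif CANNTG (E-box) or GGGCGG (GC box) on either strand.
Trpv1, chr11:73233999-73234148, plus strand: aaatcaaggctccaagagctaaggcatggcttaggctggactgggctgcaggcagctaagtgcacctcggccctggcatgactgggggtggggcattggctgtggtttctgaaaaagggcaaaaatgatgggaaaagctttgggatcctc
Htr3b, chr9:48964991-48965140, minus strand: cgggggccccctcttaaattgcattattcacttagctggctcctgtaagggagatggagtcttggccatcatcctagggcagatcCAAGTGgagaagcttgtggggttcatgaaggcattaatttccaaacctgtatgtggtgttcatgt
Drd2, chr9:49340253-49340402, plus strand: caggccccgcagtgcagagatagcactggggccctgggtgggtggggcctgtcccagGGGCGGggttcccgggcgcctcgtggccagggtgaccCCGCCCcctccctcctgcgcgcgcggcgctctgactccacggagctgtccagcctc
Chrna3, chr9:55026563-55026712, minus strand: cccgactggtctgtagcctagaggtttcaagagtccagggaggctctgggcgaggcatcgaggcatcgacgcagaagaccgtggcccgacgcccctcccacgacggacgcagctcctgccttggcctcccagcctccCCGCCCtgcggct
Chrnb4, chr9:55048545-55048694, minus strand: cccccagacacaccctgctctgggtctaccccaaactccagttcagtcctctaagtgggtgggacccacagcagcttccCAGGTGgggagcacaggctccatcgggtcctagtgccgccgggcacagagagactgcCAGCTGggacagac
The E-box was present in this window of 38.8% of 116 matched higher genes, 40.8% of 120 matched lower genes and 38.3% of 10415 matched genes compared, and the GC box in 56.03%, 50% and 52.7%. The motif AGGTCA was present in 4.31%, 5% and 5.76%. For the E-box, the GC box and AGGTCA the shares in both groups lay near those of all genes compared. TAATTA was present in 2.59%, 0.833% and 1.11%, which was 3 higher genes and 1 lower gene, too few to compare. A match is a run of letters only.

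The Trpv1 neurons were not of 1 kind. In 4 of them (AM291, AM281, AM210 and AM257) Trpa1, Htr3a, Htr3b, Chrna3, Chrnb4, Drd2 and Kcnk3 were all found, and in no other neuron of the 32 were all 7 found. Their Trpa1 lay between 515 and 872 CPM, their Htr3a between 1454 and 4054 CPM and their Chrna3 between 40.4 and 472 CPM. Calca was at most 1.08 CPM and Scn1a 0 CPM in these 4. Over the 2000 most variable genes the correlations among the 4 were 0.758 to 0.842, against 0.262 to 0.649 among the other 8 Trpv1 neurons (28 pairs) and 0.162 to 0.854 among the Trpv1-negative neurons (190 pairs). All 4 belong to the last block of neuron numbers. The other Trpv1 neurons of that block, AM284, AM283, AM271 and AM221, held 1, 3, 4 and 0 of the 7 genes. A part of the block in the pattern was not tested.

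The other 8 Trpv1 neurons were mixed. AM021, AM284 and AM020 paired Trpa1 (2415, 77.6 and 39.7 CPM) with Calca (9512, 2143 and 233.5 CPM), and the first 2 of them had Htr3a at 6.92 and 3.86 CPM. Calca is 1 of the jugular markers given above, and AM284 was the Trpv1 neuron in which P2rx2 was not found (0.643 CPM). AM283 had Calca at 379 CPM and Chrna3 at 82.2 CPM, with Trpa1 at 0. AM020, AM018 and AM271 had Htr3a at 1166, 274.9 and 643 CPM, and of these AM018 also had Piezo2 at 332 CPM and Cntn1 at 499 CPM. AM070 had Trpv1 at 94.0 CPM beside Tac1 at 3407 CPM, Piezo2 at 173 CPM and P2ry1 at 380 CPM, values in the range of the Trpv1-negative neurons. AM221 held none of the 7 genes and had P2ry1 at 488 CPM. For 5 of the 12 (AM221, AM271, AM284, AM020 and AM070) the most correlated of the other 31 neurons was a Trpv1-negative one.

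**Figure D4:**
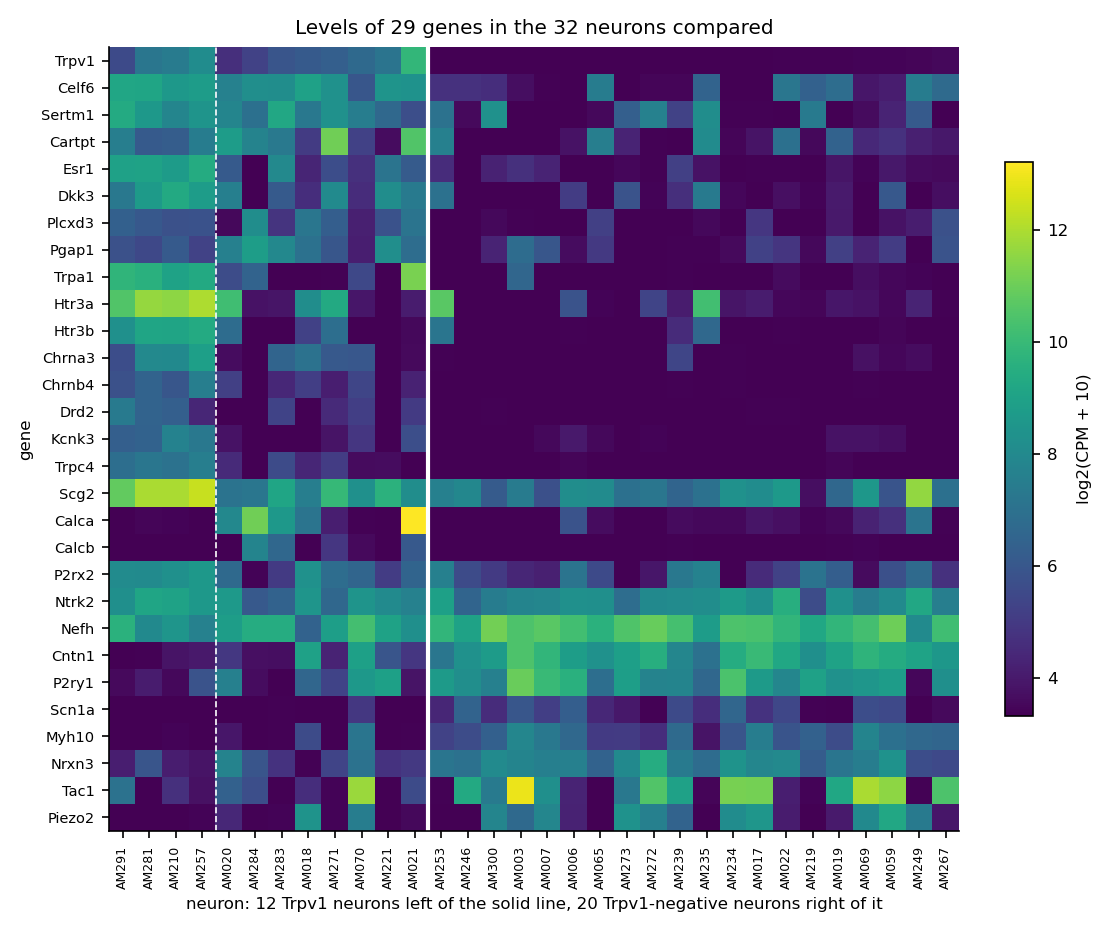
log2(CPM + 10) of 29 genes (rows) in the 32 neurons compared (columns), with the 12 Trpv1 neurons left of the solid line. The 4 neurons left of the dashed line hold Trpa1, Htr3a, Htr3b, Chrna3, Chrnb4, Drd2 and Kcnk3 together. Celf6 is at 52.1 CPM or more in all 12, and Cntn1 and P2ry1 are high in most columns on the right.

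Without these 4 neurons the comparison kept part of its genes. Of 53 named genes past 40 points, Trpv1 aside, 30 were still past it with 8 against 20 neurons, and of 40 past the level limit 14 were. Celf6 was found in 8 of 8 with a difference of 3.11, Esr1 in 7 of 8 (1.89), Cartpt in 7 of 8 (2.77) and Sertm1 in 8 of 8 (2.54). Trpa1, Chrna3 and Chrnb4 were each found in 4 of 8, with level differences of 1.73, 1.46 and 1.07, and Htr3a and Htr3b in 3 of 8, with 1.33 and 0.71. Drd2 was found in 4 of 8, and Kcnk3 in 2. Calca, found in 5 of 8, and Calcb, found in 4 of 8, were then past the share limit at 47.5 and 50 points, and the level difference of Calca was 3.47. Of the lower genes Cntn1 (-3.21), P2ry1 (-2.33) and Tac1 (-2.27) stayed 2 or more below, while Olfm3 (-1.18), Slc24a2 (-1.42) and Thsd7a (-0.79) did not. Of the 53 genes 41 stayed past 40 points, and of the 40 genes 30 past the level limit, whichever of the 32 neurons was left out. Among level differences Htr3b was 1.90, Maob 1.85 and Scg2 1.89 without AM257, Plcxd3 1.98 without AM284, Gnas 1.92 without AM018, Fam89a 1.94 without AM006 and H2-K1 1.95 without AM221, while Fxyd7 was -1.99 without AM239 and Thsd7a -1.76 without AM291. By share Htr3b, Crlf2, Scn3a, Cacna1c, Cacna1h, Kcnmb4, Plxna2, Hopx, Olfm3, Serpina3g, Thsd7a and Rspo2 were the genes that 1 neuron could bring under the limit.

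Some Trpv1-negative neurons resembled the Trpv1 side in single genes. AM253 and AM235 had Htr3a at 1629 and 1178 CPM, Htr3b at 135 and 92.3 CPM and Cartpt at 187 and 263 CPM, with Piezo2 under 1 CPM and Tac1 at 0.542 and 1.01 CPM. The 1 Trpv1-negative neuron with Trpa1, AM003, had 87.1 CPM of it and the highest Tac1 of the class. Piezo2 and Tac1 were found together in 10 of the 20, and each of these also had P2ry1, which was found in 19 of the 20.

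The genes were also read in neurons that the rule had left out for having fewer than 5000 genes, 5 with Trpv1 at 10 CPM or more and 28 without, at medians of 3286 and 3058 genes. Prdm12 reached 9.13 CPM in AM086, 1 of the 5, just under its limit of 10 CPM, and at most 3.41 CPM in the 28. Of 165 genes higher in the Trpv1 neurons, Trpv1 left out, 37.6% had a higher and 55.2% a lower share in these 5 neurons, where 35.8% and 44.1% of all genes compared did, and their median difference was -3.57 points. Of the 164 lower genes 48.2% had a lower and 45.1% a higher share. Of the 165 higher genes 153 were detected in the 5 and 28 neurons, 62 with a higher and 91 with a lower share. Among all genes compared 11583 were detected there, 5164 with a higher and 6366 with a lower share. In both sets more genes were thus lower than higher. Celf6 was found in 4 of 5 and 12 of 28 and Plcxd3 in 2 of 5 and 0 of 28. Trpa1 was found in 2 of 5 and 2 of 28 and Drd2 in 0 of 5 and 5 of 28. Htr3a, which had not passed the share limit, was found in 5 of 5 and 13 of 28. The 12 higher genes with the largest level differences outside the lists were split. Esr1, Efcab6, Bex1, Dgkg, Hs3st4 and Pgap1 had a lower share there (-21.4 to -6.43 points). Celf6, Sertm1, Dkk3, Hs6st2, Plcxd3 and Maob had a higher one (22.1 to 40 points). Of the 12 such lower genes, Pappa2, Slc24a2, Olfm3, Rspo2 and Myh10 had a higher share there (4.29 to 25.7 points), the others a lower one. With fewer genes detected, a missing transcript in these neurons does not show that it was absent from the cell.

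**Figure D5:**
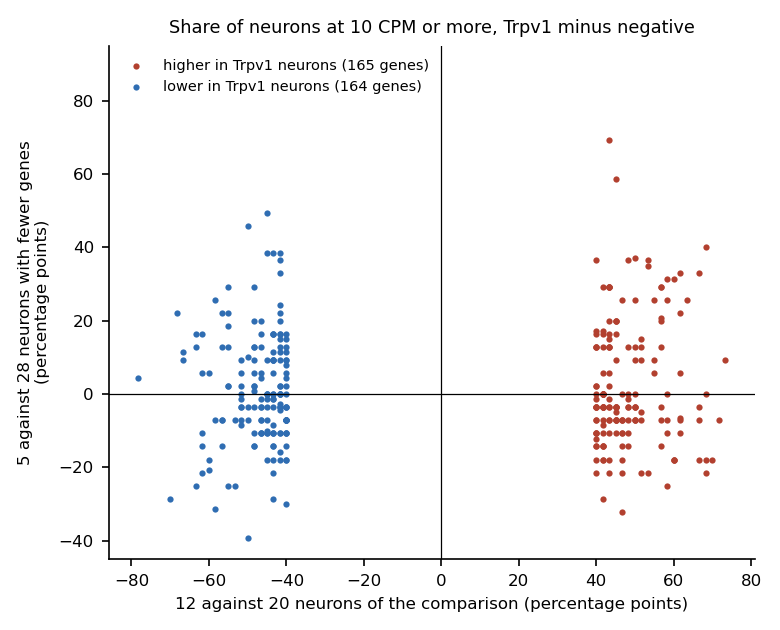
Each point is 1 of the 165 higher (red) or 164 lower (blue) genes, Trpv1 left out. The horizontal axis is the difference in share of neurons (Trpv1 minus negative, percentage points) in the 12 and 20 neurons compared and the vertical axis the same in 5 and 28 neurons with fewer genes. Points of both colours lie on both sides of 0 on the vertical axis.

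The neuron numbers fall into 3 blocks, with more than 30 unused numbers between them, and the labels do not say what a block is. The blocks held 3, 1 and 8 Trpv1 neurons and 6, 3 and 11 Trpv1-negative neurons. Of 165 higher genes 146, 126 and 165 had a higher mean within blocks 1, 2 and 3, and of 164 lower genes 156, 94 and 161 had a lower one. Of all 14431 genes 40.8%, 50.8% and 54.5% had a higher mean. The genes were chosen on the same neurons, most of them in block 3, so these counts are no independent support. Within block 1 Trpa1 differed by 2.82, Celf6 by 3.71 and Cntn1 by -3.30 on the log2 scale, and within block 3 by 3.43, 3.63 and -4.42. Several genes of both directions rested on block 3. Without it, at 4 and 9 neurons, the share difference of Cntn1 was 0 points and its level difference -2.50, and the level differences of Slc24a2, Fxyd7 and Rspo2 were -0.10, -0.24 and -0.11. The share differences of Slc24a2 and Fxyd7 were then 0 and -2.78 points. On the higher side the level differences were 1.59 for Esr1, 0.91 for Hs6st2, 0.73 for Vat1l, 0.54 for Efcab6 and 0.30 for Scg2. By level 14 of the 30 higher and 5 of the 22 lower genes were still past the limit. The single Trpv1 neuron of block 2 is AM070, described above, where P2ry1 (0.54) and Tac1 (2.79) differed the other way.

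Markers of other cells were present in both classes, and their summed levels overlapped between them. The 7 satellite glia genes summed to a median of 1186 CPM in the Trpv1 neurons (180 to 3140) and 1467 CPM in the Trpv1-negative neurons (424 to 10873), and the 5 Schwann cell genes to 537 CPM (43.6 to 1099) and 762 CPM (362 to 1313). None of these genes passed a limit, though S100b and Pmp22 were lower in the Trpv1 neurons by the values given above. Endothelial genes summed to at most 42.9 and 4.72 CPM, leukocyte genes to at most 9.97 and 122 CPM and epithelial genes to at most 0 and 0.0660 CPM. The 10 pan-neuronal genes summed to medians of 17490 and 15946 CPM. In counts made without strand, reads of overlapping genes cannot be told apart, which touches Htr3a, Chrnb4, P2ry1, Scn1a, Kcnk3, Cntnap1, Hopx, Nefm, Tmem163 and Gnas, each with a gene on the other strand in GENCODE M21.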

How the data were processed

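The deposited table holds the authors' raw read counts, whole numbers per Ensembl gene and neuron. FeatureCounts made them, per the submitters' processing notes, and the sequencer was a NextSeq instrument, per the labels' protocols. For the aligner, genome build, annotation and strand setting of the counting, the sources used here give nothing. They name no molecular identifiers either, so copies made by amplification were counted as reads.

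CPM values were computed from each neuron's total. Of 50686 identifiers 50376 matched GENCODE M21 (GRCm38), and the 310 others held at most 0.253% of any neuron's counts. Genes at 10 CPM in 1 or more of the 32 neurons were compared by share of neurons (40 points) and by mean log2(CPM + 10) (2 or more). Shares carry exact Clopper-Pearson 95% intervals. The upper limit printed for a share of 0 is approximate, 3 divided by the number of neurons. The intervals count neurons as independent draws, which neurons of unnamed animals may not be, so they are no test between the classes. Neurons were not treated as replicates of a condition, and no p-value was computed.

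The members, the 34 lists and the rule for named genes were chosen with earlier results of these data known. That rule takes members of lists of 14 or fewer, members of longer lists past a limit or most often found, and outside the lists coding genes: the 12 largest level differences past 40 points and the 6 largest among widely found genes in each direction, and the 10 highest rank correlations with Trpv1. Loci on chromosome 9, the 7 genes found together and the neurons named singly were chosen after their values were seen.

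Tools were Python 3.11.15, numpy 2.4.6, pandas 2.3.3, scipy 1.17.1, matplotlib 3.10.9 and, for trimmed mean of M-values (TMM) factors only, edgeR 4.0.16 in R 4.3.3. The steps were tested on simulated data. No count test was run. Some results are not reported here.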

Additional observations from a re-analysis of the deposited data

Results flagged for a closer look

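Trpv1 was also found in 8 neurons that the comparison did not use, each above the level that 3 counts would give in its library. The highest value of the series, 3136 CPM, came from AM224, which was left out for its total of 3641038 counts, 11417 of them Trpv1. It had Tac1 at 14447 CPM, Chrnb4 at 327 CPM and Celf6 at 1.92 CPM. Among neurons with fewer than 5000 genes, AM076 had 669 CPM, AM083 had 52.7 CPM, AM216 had 34.12 CPM, AM086 had 18.6 CPM and AM289 had 15.5 CPM. AM076 also held Trpa1 (429 CPM), Htr3a (1419 CPM) and Chrna3 (1235 CPM). Both Prdm12 neurons with Trpv1, AM296 at 226.5 CPM and AM237 at 18.42 CPM, held Calca (8796 and 3507 CPM) and Cartpt (1553 and 2016 CPM), with Trpa1 at 5.44 and 0.140 CPM and P2rx2 under 1 CPM.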

How the results depend on the processing

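Of 1650 single-gene values under the alternatives, 1551 moved by less than the spread between neurons and 99 by more or changed sign. Of these 5 changed sign, among them 2 differences past a limit: Nrp1 had a share difference of -1.67 points at 50 CPM and Pgap1 one of -2.78 points without block 3. The other 3, none past a limit, also turned without block 3: the share of Tac1 to 22.2 points and the levels of Nrp1 to -0.38 and Cacna1c to -0.16. The genes past the share limit were 0.416% higher and 0.326% lower (60 and 47 genes) at 50 points, 2.84% lower with 7000 or more genes per neuron, 2.2% higher without block 1, and 3.5% higher and 5.81% lower without block 3, where 4 and 9 neurons remained. By level 1.03% were higher and 0.929% lower with a pseudocount of 1, and 0.0919% and 0.0707% (13 and 10 genes) without the 4 neurons that held the 7 genes together, an alternative added after seeing the data. TMM scaling gave 184 higher and 160 lower genes by share and thinning to equal depth 168 and 162, of which 142, 139, 150 and 147 were those of the unscaled values. At 5 CPM 166 and 159 genes passed, 93 and 75 of them shared with 10 CPM, and at 50 CPM 112 and 132, of which 25 and 35 were shared. Leaving out each neuron in turn, also added later, gave 0.876% to 1.49% higher and 0.954% to 1.65% lower by share, and 0.174% to 0.258% and 0.139% to 0.216% by level. No paired analysis was possible because the labels put all neurons in 1 group and do not pair them. At 12 and 20 neurons a share of 0 allows up to about 25% and 15%, for counting error only.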
